A study of Mus musculus with 4 samples.

Results

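The promoters of the C-type lectin and killer receptor genes were examined for histone 3 lysine 9 dimethylation (H3K9me2) in mouse aortic vascular smooth muscle cells (VSMC). The members are all rows of the deposited promoter table whose gene symbol begins with Klr, Clec or Cd209 in its numbered form, which gave 61 of 26354 promoters. They fall into 3 groups, 22 killer receptor (Klr) promoters, 32 Clec promoters and 7 Cd209 promoters. The rule used the symbol only and no measured value. Lectin and killer receptor genes outside the table were not analysed here.

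Chromatin came from the aortic media of male C57Bl/6J animals, fixed without culture or treatment after adventitia and endothelium had been stripped by hand. All 4 libraries shared this strain, sex and tissue. There were 2 experiments, v102 and v134, each with 1 library from chromatin immunoprecipitation (ChIP) with an H3K9me2 antibody and 1 input library of chromatin without immunoprecipitation, so the only comparison the design allows is ChIP against input. The age of the animals and the number pooled in an experiment were not given in the sources used here.

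C-type lectins carry a fold that in many members binds sugars and in others binds proteins. The killer receptors are lectin-like proteins of natural killer (NK) cells and some T cells that read self proteins, above all MHC class I, and restrain or trigger killing. The Clec receptors sit mostly on macrophages, dendritic cells, platelets and endothelium and sense fungal, bacterial and dead-cell ligands, and the Cd209 family is the mouse counterpart of human DC-SIGN, the mannose-binding receptor of dendritic cells. Most of these genes are markers of blood cells and are not part of the smooth muscle program, and H3K9me2 is a mark associated with silent genes. Expression was not measured in these libraries.

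Reads were counted within 1000 bases either side of each start site. The promoter totals were 162233 and 229605 reads in the ChIP libraries of v102 and v134 and 619100 and 1084349 in the inputs, and the median promoter had 4, 5, 20 and 37 reads in that order. The members had between 2 and 107 ChIP reads and between 27 and 97 input reads summed over both experiments, so single promoters are measured with low precision. Over 8 smooth muscle contractile promoters, 3 were below input (Myh11, Cald1 and Lmod1) and 1 was above (Smtn). Of 5 leukocyte marker promoters 2 were above input (Ptprc and Itgam), and of 5 endothelial ones 1 was below (Pecam1). Over all promoters 18.6% were above and 17.0% below input, and nothing is read from counts over lists this short.

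The sequence around 6 start sites is shown because these promoters mark the range described in the following paragraphs. They run from the highest member (Cd209d) and a member of the same cluster that did not pass the test (Cd209f), through an AT-rich Ly49 promoter (Klra6) and the highest and lowest Clec2 promoters on the natural killer gene complex (Clec2i and Clec2d), to the lowest member (Clec16a). Each run covers 250 bases before and 50 bases after the RefSeq start site on GRCm38.p6, 5′ to 3′ on the strand of the gene, with each CG dinucleotide in capitals. The intervals are chr8:3878450-3878749 (minus strand) for Cd209d, chr8:4105715-4106014 (minus) for Cd209f, chr6:130026905-130027204 (minus) for Klra6, chr6:128887337-128887636 (plus) for Clec2i, chr6:129180365-129180664 (plus) for Clec2d and chr16:10545089-10545388 (plus) for Clec16a.
Cd209d: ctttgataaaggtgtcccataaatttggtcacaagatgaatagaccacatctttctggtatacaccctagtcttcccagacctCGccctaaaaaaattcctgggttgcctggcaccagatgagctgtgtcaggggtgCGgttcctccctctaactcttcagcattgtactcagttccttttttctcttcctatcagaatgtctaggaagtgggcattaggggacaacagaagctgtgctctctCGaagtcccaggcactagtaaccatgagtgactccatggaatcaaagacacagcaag
Cd209f: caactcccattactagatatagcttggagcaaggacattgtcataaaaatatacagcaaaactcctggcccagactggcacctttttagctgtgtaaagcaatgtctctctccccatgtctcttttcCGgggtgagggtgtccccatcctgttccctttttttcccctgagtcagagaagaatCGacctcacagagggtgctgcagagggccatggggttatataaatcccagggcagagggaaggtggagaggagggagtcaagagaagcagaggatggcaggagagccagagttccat
Klra6: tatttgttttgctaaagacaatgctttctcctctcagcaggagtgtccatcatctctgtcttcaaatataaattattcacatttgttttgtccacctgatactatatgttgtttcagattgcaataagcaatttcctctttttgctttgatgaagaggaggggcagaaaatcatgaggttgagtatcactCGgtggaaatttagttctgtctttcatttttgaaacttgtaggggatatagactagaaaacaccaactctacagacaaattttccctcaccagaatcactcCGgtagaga
Clec2i: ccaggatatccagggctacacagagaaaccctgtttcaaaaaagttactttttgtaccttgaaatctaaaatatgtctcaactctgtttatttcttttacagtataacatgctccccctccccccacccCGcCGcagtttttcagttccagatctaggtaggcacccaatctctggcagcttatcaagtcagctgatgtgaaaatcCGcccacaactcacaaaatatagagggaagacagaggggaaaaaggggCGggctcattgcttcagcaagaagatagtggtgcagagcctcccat
Clec2d: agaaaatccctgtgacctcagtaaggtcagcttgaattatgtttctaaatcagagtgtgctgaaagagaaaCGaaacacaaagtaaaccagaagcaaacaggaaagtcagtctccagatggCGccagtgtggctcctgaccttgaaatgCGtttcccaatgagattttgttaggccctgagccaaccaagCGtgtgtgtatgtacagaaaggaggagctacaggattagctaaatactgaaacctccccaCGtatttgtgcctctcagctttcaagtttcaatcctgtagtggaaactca
Clec16a: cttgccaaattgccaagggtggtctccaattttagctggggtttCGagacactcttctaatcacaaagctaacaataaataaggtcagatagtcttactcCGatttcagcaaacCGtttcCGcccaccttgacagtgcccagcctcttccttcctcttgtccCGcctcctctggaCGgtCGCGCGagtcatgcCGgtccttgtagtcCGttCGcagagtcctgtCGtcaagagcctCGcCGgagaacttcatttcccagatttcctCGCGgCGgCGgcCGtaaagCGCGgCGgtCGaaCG
The stretches of Cd209d, Cd209f, Klra6, Clec2i and Clec2d hold 3, 2, 2, 4 and 5 CG dinucleotides, and that of Clec16a holds 25. Of the 61 members 50 had a RefSeq promoter entry, with a median of 3 CG dinucleotides, and 45 of them held at least 1 CG. Over all 32851 RefSeq mouse promoters of the same length the median was 7, and 94.6% held at least 1. CG reads the same on both strands, so each was counted once.

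The question was whether H3K9me2 at these promoters differed between the 3 groups and from the other promoters. H3K9me2 over input was highest at the Cd209 promoters, lower at the killer receptor promoters and lowest at the Clec promoters. With reads summed over both experiments, the ChIP to input ratio was 1.07 for Cd209 (95% Wilson interval 0.931 to 1.23), 0.564 for Klr (0.511 to 0.621) and 0.374 for Clec (0.343 to 0.408), against 0.255 over the 26263 other nuclear promoters. These intervals account for counting error alone, and not for the spread between experiments or between promoters. The libraries carried no molecular identifiers, so copies of a molecule cannot be recognised and even the counting error may be larger. Because the inputs were sequenced more deeply than the ChIP libraries, a ratio below 1 does not mean less H3K9me2 than input, and folds are therefore given relative to the other promoters. The median ratio of these other promoters was 0.162, below their pooled 0.255, so a typical promoter lies below 1-fold. Percentiles given further on rank the ratio among all promoters.

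Relative to the other promoters, the Cd209 promoters stood at 4.21-fold, with 4.72 in v102 and 3.87 in v134. The Klr promoters stood at 2.21-fold, with 2.23 in v102 and 2.24 in v134, and the Clec promoters at 1.47-fold, with 1.61 and 1.39. The order of the groups was the same in both experiments and their ranges did not overlap. Cd209 exceeded Clec by 2.87 times (95% interval 2.43 to 3.38; 2.94 in v102 and 2.79 in v134) and Klr by 1.90 times (1.60 to 2.26; 2.12 and 1.73), and Klr exceeded Clec by 1.51 times (1.32 to 1.72; 1.39 and 1.62). The intervals of these quotients come from the read counts on a log scale. They hold counting error only, and not the spread between experiments or between promoters. The quotients are given without a test, since there were 2 experiments and an exact two-sided permutation test of 2 values against 2 cannot go below 0.333.

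GC content differed between the groups, though its order was not that of the folds. The ratio fell with GC content over all promoters, and the median GC content of the 2 kb windows was 39.3% for Klr, 42.2% for Clec and 47.5% for Cd209, against 50.9% over all matched promoters. Relative to the ratio expected from the GC trend of the other promoters, the Cd209 promoters stood at 3.79-fold, the Klr promoters at 1.16-fold and the Clec promoters at 0.963-fold. At matched GC content the fold of Cd209 thus moved little, that of Klr was nearer to 1 (1.19 in v102 and 1.14 in v134), and that of Clec lay on either side of 1 (1.07 in v102 and 0.895 in v134).

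**Figure D1:**
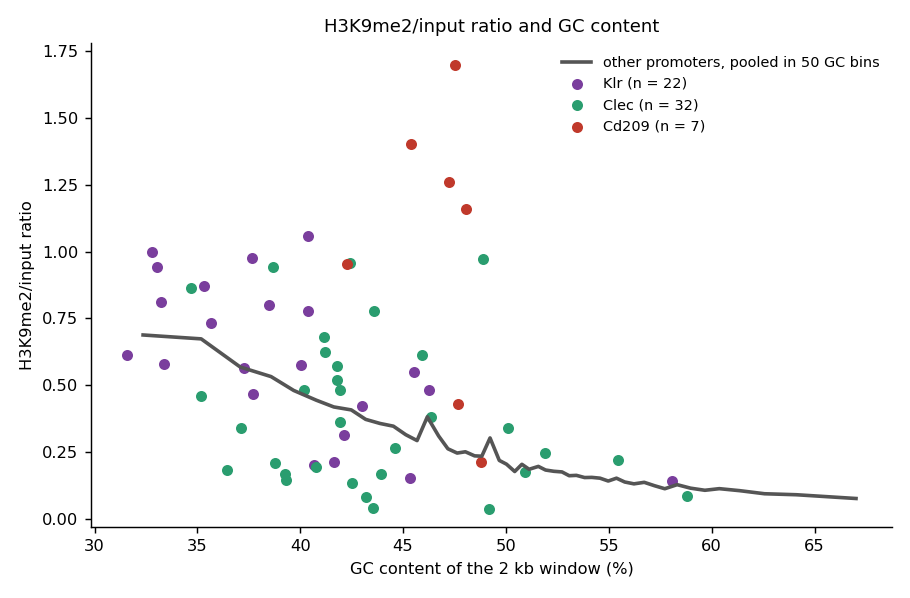
H3K9me2/input ratio of the 61 member promoters (y axis, unscaled ratio of summed reads) against the GC content of their 2 kb windows (x axis, percent), coloured by group, with the pooled ratio of the other promoters in 50 GC bins as a line. Klr and Clec promoters lie on both sides of the line, most Klr promoters at low GC content, and 5 of 7 Cd209 promoters lie far above it, at ratios of 0.952 to 1.70.

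Each promoter was also tested for ChIP against input over all 26354 promoters with edgeR. Of the 61 members, 31 were above input, against 18.6% of all promoters, and 2 were below, against 17.0%. Calls above input came at 14 of 22 Klr, 12 of 32 Clec and 5 of 7 Cd209 promoters, and both calls below input were Clec promoters (Clec16a and Clec18a), which lost their calls with the experiment as a block, without the v102 ChIP library and without either input. The median log2 fold change was 1.21 over the members and -0.35 over all promoters. In the top quartile of the ratio (0.343 or more), which holds 25.0% of all promoters, there were 38 members, namely 17 Klr, 15 Clec and 6 Cd209. Without the v134 ChIP library, 9 Klr promoters were above input in place of 14, and 12.9% of all promoters in place of 18.6%. Across the 61 members the log2 ratios of the 2 experiments correlated with Pearson's r = 0.72 and Spearman's rho = 0.71, as a description of promoters that share their libraries. In bulk chromatin, more cells carrying the mark at a promoter and more of it per cell cannot be told apart.

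**Figure D2:**
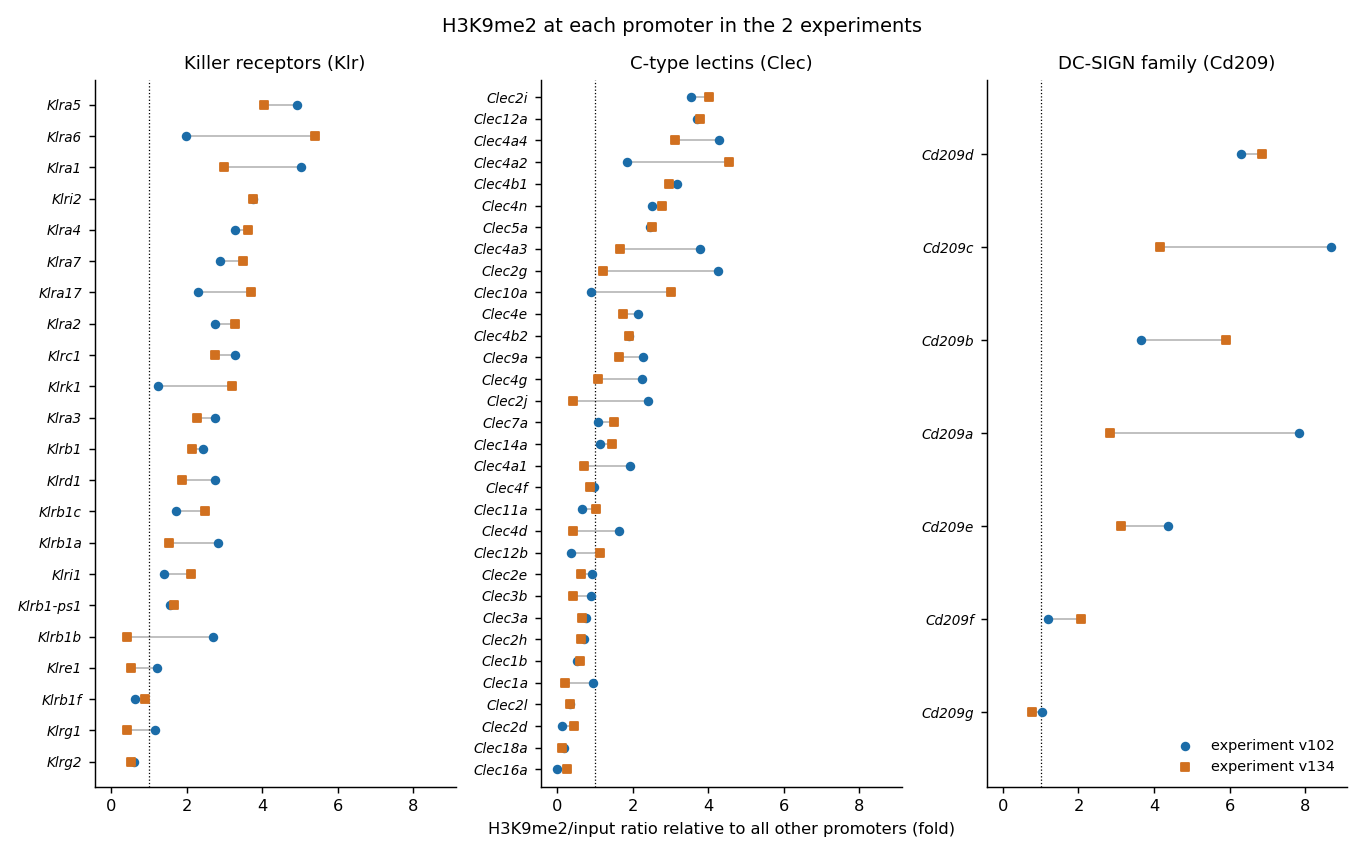
H3K9me2/input ratio of each member promoter relative to all other promoters (x axis, fold) in experiments v102 (circles) and v134 (squares), with 1 row per promoter and the members sorted by ratio within the Klr, Clec and Cd209 groups; the dotted line marks the other promoters. Cd209a to Cd209e lie above 2.8-fold in both experiments, while Cd209f lies at 1.20 and 2.06-fold and Cd209g at 1.03 and 0.77-fold.

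Of the 7 Cd209 promoters 5 were above input and 2, Cd209f and Cd209g, did not pass the test. Cd209d had 46 and 61 ChIP reads against 24 and 39 input reads (v102 and v134 in each pair), a ratio of 1.70 (1.25 to 2.32), and ranked 38 of 26354. Its log2 fold change was 3.01 ± 0.34 (SE), with an edgeR adjusted p of 5.28e-16. It was the highest member in ratio, and both experiments placed it above 6-fold, at 6.30 and 6.86.

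Cd209c had 37 and 36 ChIP reads against 14 and 38 input reads, a ratio of 1.40, and its log2 fold change was 2.79 ± 0.35 (edgeR adjusted p = 1.01e-12). Cd209b, which encodes SIGN-R1 of splenic marginal zone macrophages, had 29 and 58 ChIP reads against 26 and 43 input reads, a ratio of 1.26. Cd209a, the dendritic cell member most often called mouse DC-SIGN, had 31 and 20 against 13 and 31, a ratio of 1.16. Both experiments put each of these promoters above 2.8-fold, although Cd209a differed between them (7.83 and 2.83-fold). Cd209e had 32 and 27 ChIP reads against 24 and 38 input reads, a ratio of 0.952, and was also above input (log2 fold change 2.20 ± 0.36, edgeR adjusted p = 4.13e-08). These 5 calls held without any of the 4 libraries, with the experiment as a block and with DESeq2.

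Cd209f and Cd209g are the last genes of the cluster. Cd209f had 4 and 8 ChIP reads against 11 and 17 input reads, a ratio of 0.429 (0.221 to 0.833) and a log2 fold change of 1.03 ± 0.62 (edgeR adjusted p = 0.175). Cd209g had 5 and 7 against 16 and 40, a ratio of 0.214 (0.116 to 0.396) and a log2 fold change of 0.06 ± 0.55 (edgeR adjusted p = 0.937). Cd209f was still in the top quartile of the ratio, at 1.68-fold. Its interval ends below the lower bounds for Cd209d, Cd209c and Cd209b (1.25, 0.986 and 0.920) but overlaps those of Cd209a and Cd209e, whose lower bounds are 0.777 and 0.668, whereas that of Cd209g ends below all of them. Of the 75-base stretches in their windows, 26.8% in Cd209f and 13.3% in Cd209g also occur elsewhere in the genome, and none in Cd209a to Cd209e. Reads from such stretches can be lost or placed at another copy, and their part in these values was not tested.

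The RefSeq promoter sequences of Cd209f and Cd209g shared 86.3% of 300 bases, the highest identity of any pair in the family, and other pairs shared between 45.7% and 62.0%. The RefSeq start site of Cd209c lies 7883 bases from its GENCODE start site, so its counted window may be either. All 7 genes lie on chromosome 8 with start sites between 3748984 and 4134098 on GRCm38, over 385 kb. Here and further on, neighbours and flanking promoters were sought only among the 84.7% of promoters with a matched position. The only other such promoter between the 7 genes, the processed pseudogene Gm7381, had a ratio of 1.10 and was also above input. The 250 kb before Cd209a held 11 promoters of other genes at 0.836-fold, with 2 above input, and the 250 kb after Cd209g held 9 at 0.461-fold, of which 3 were below input. Of these 3, Ccl25 and Elavl1 start at 576.226 and 576.429 kb from Cd209a, so their windows overlap and they share reads. The promoters nearest before Cd209a were also above 1-fold. They were Fcer2a (1.74-fold) and Gm16553 (1.70-fold), both above input, and the member Clec4g (1.49-fold), which was not called. The highest ratios lay at Cd209a to Cd209e and Gm7381, and the ratio at Cd209g and the promoters after it was under 0.25.

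**Figure D3:**
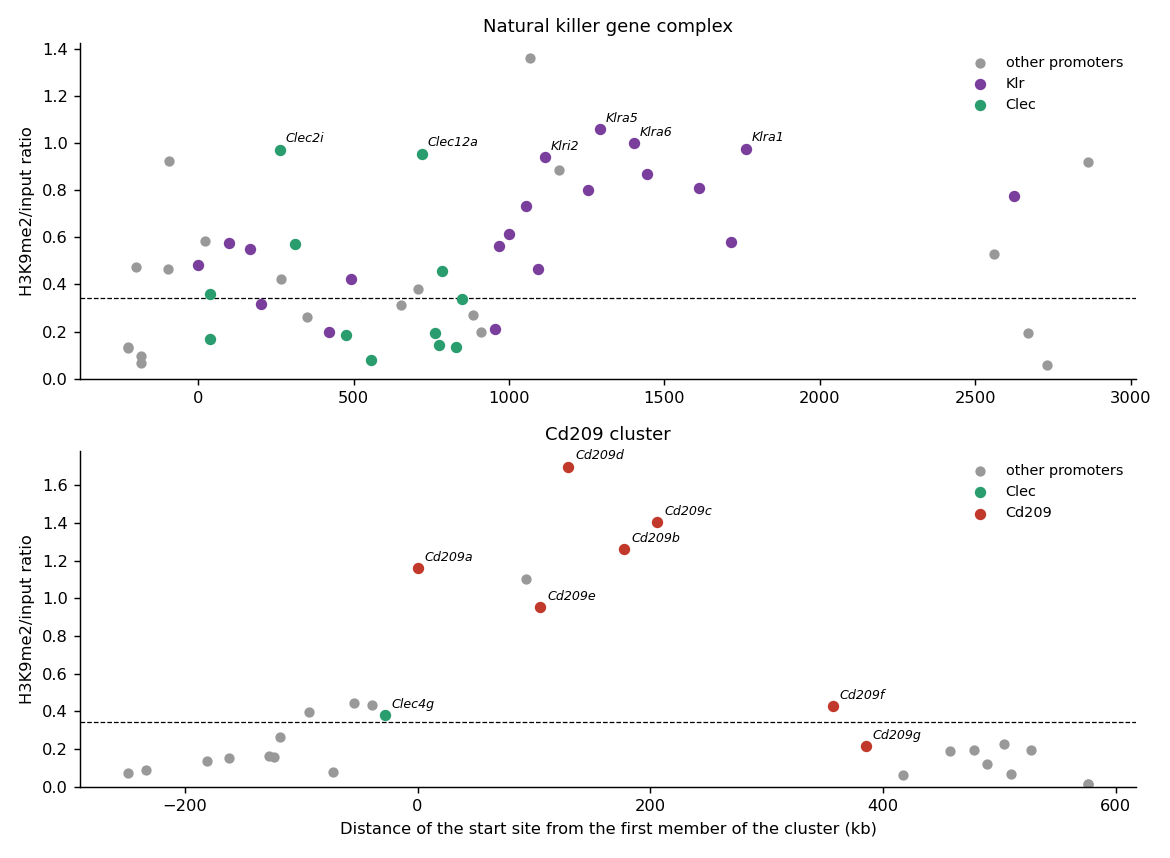
H3K9me2/input ratio (y axis, unscaled ratio of summed reads) of every promoter with a matched position in and within 250 kb of the natural killer gene complex and the Cd209 cluster against the distance of its start site from the start site of the member that comes before all others in the cluster (x axis, kb); colours mark the groups, grey the other promoters, and the dashed line the top quartile. Ratios peak at 1.70 in the middle of the Cd209 cluster. Those of killer receptor promoters reach 1.06 (Klra5) in the middle of the complex and 0.574 (Klrb1) at its start. Klre1 (0.212) and Klri1 (0.465), also towards the middle, lie below Klrb1.

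Of the killer receptor promoters, the Ly49 genes (Klra), whose products bind MHC class I on mouse NK cells, were the highest subfamily. All 8 were above input, and pooled they stood at 3.39-fold (2.88 to 3.98), with 3.14 in v102 and 3.61 in v134. Their median GC content, 36.5%, was the lowest of the subfamilies together with that of the CD94 and NKG2 genes, and against the GC trend they stood at 1.48-fold. Their RefSeq promoter sequences shared between 45.3% and 83.0% of 300 bases, with the highest identity between Klra5 and Klra6, although the RefSeq start site of Klra5 lies 4426 bases from its GENCODE start site. None had over 10% repeated 75-base stretches in its window.

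Klra5 (Ly49E) had 12 and 24 ChIP reads against 8 and 26 input reads, a ratio of 1.06 and a log2 fold change of 2.35 ± 0.43 (edgeR adjusted p = 1.56e-06). Klra1 (Ly49A) had 23 and 19 against 15 and 28, a ratio of 0.977 and a log2 fold change of 2.24 ± 0.40 (edgeR adjusted p = 7.71e-07). Klra6 (Ly49F) had 9 and 32 against 15 and 26, a ratio of 1.00, and differed between experiments (1.97-fold and 5.40-fold). The middle of the subfamily was taken by Klra4 (Ly49D, an activating receptor), Klra7 (Ly49G) and Klra17 (Ly49Q, of plasmacytoid dendritic cells), with ratios of 0.871, 0.811 and 0.800. At the lower end Klra2 (Ly49B, of myeloid cells) had 10 and 18 ChIP reads against 12 and 24, a ratio of 0.778 and a log2 fold change of 1.89 ± 0.46 (edgeR adjusted p = 4.47e-04). Klra3 (Ly49C) had 5 and 13 against 6 and 25, a ratio of 0.581 and a log2 fold change of 1.49 ± 0.54 (edgeR adjusted p = 0.0232). Without the v134 ChIP library Klra3, Klra4, Klra6 and Klra7 lost their calls, and Klra3 also lost its call without either input and with the experiment as a block.

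The promoters of CD94 and the NKG2 receptors and their kin, several of which pair with each other on the surface of NK cells, stood at 2.38-fold (1.99 to 2.83; 2.33 and 2.43 in the 2 experiments), with 4 of 6 above input, and at 1.02-fold against the GC trend. Klri2 had 24 and 41 ChIP reads against 21 and 48 input reads, a ratio of 0.942 and a log2 fold change of 2.18 ± 0.35 (edgeR adjusted p = 1.92e-08), and its folds in the 2 experiments were close together at 3.75 and 3.74. Klrc1, which encodes NKG2A, an inhibitory receptor, had 13 and 20 against 13 and 32, a ratio of 0.733 and a log2 fold change of 1.82 ± 0.42 (edgeR adjusted p = 1.98e-04). Klrk1, which encodes the activating receptor NKG2D, had 6 and 24 against 16 and 33, a ratio of 0.612, and Klrd1, which encodes CD94, had 20 and 20 against 24 and 47, a ratio of 0.563. The experiments differed most for Klrk1, at 1.23-fold and 3.19-fold, and its call was lost without the v134 ChIP library, without either input and with DESeq2. The partners Klri1 and Klre1 did not pass the test. Klri1 had 6 and 14 against 14 and 29 and a log2 fold change of 1.15 ± 0.50 (edgeR adjusted p = 0.0543), and Klre1 had 7 and 4 against 19 and 33 and a log2 fold change of 0.03 ± 0.57 (edgeR adjusted p = 0.971).

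The Nkrp1 promoters (Klrb1 genes) were lower, at 1.63-fold (1.33 to 1.99; 1.86 and 1.46), with 2 of 6 above input and 1.04-fold against the GC trend. Klrb1 had 14 and 17 ChIP reads against 19 and 35 input reads, a ratio of 0.574 and a log2 fold change of 1.46 ± 0.42 (edgeR adjusted p = 0.00311). Klrb1c, which encodes NK1.1, the marker by which NK cells of this strain are usually sorted, had 11 and 22 against 21 and 39, a ratio of 0.550 and a log2 fold change of 1.39 ± 0.41 (edgeR adjusted p = 0.00399). Both calls were lost without either input library, and that of Klrb1c also without the v134 ChIP library and with DESeq2. Klrb1a and the pseudogene Klrb1-ps1 had ratios of 0.481 and 0.421 and did not pass. Klrb1b, an inhibitory receptor, had 18 ChIP reads in v102 and 5 in v134 against 22 and 51 input reads, which put it at 2.69-fold and 0.43-fold (log2 fold change 0.65 ± 0.43, edgeR adjusted p = 0.228). Klrb1f had 4 and 7 against 21 and 34, a ratio of 0.200 and a log2 fold change of -0.06 ± 0.56 (edgeR adjusted p = 0.934).

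Klrg1 and Klrg2 were the only killer receptor promoters of the table outside the natural killer gene complex, and they were also the lowest of the group. Klrg1, an inhibitory receptor for cadherins on mature NK and T cells, had 6 and 6 ChIP reads against 17 and 62 input reads, a ratio of 0.152. Klrg2 had 4 and 5 against 22 and 42, a ratio of 0.141. Neither passed the test (log2 fold changes -0.40 ± 0.51 and -0.56 ± 0.58, edgeR adjusted p = 0.551 and 0.451). Pooled they stood at 0.577-fold (0.366 to 0.909; median percentile 46.3), but the experiments differed, with 0.842 in v102 (0.426 to 1.67) and 0.464 in v134. Against the GC trend they stood at 0.657-fold, with 1.02 in v102 and 0.519 in v134.

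**Figure D4:**
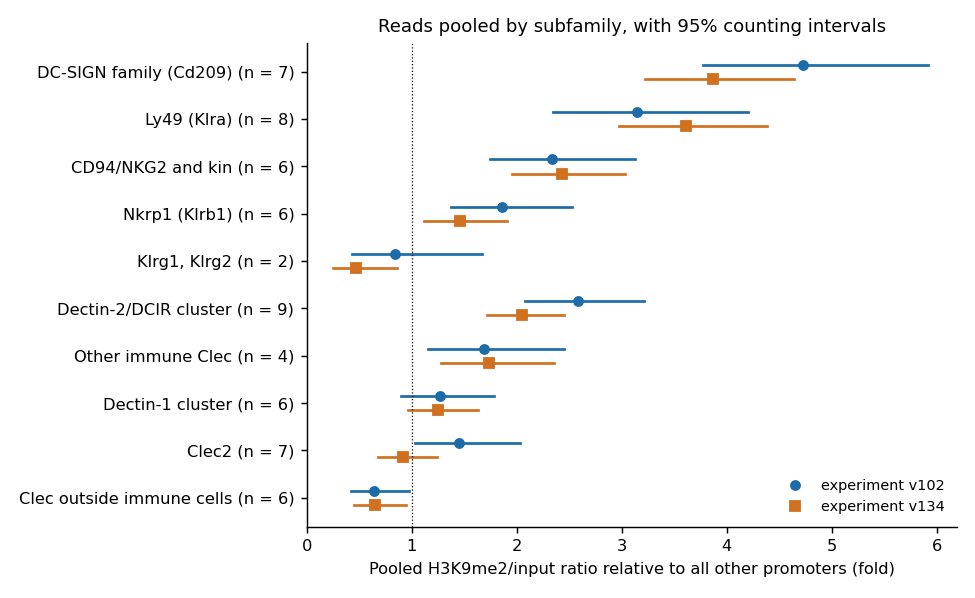
Reads pooled by subfamily, as H3K9me2/input ratio relative to all other promoters (x axis, fold) with 95% Wilson intervals for counting error, in experiments v102 (circles) and v134 (squares); n is the number of promoters and the dotted line marks the other promoters. Cd209 and Ly49 lie highest, at 4.21 and 3.39-fold over both experiments, and the Clec genes listed by hand as used outside immune cells lie below the line in both. The line is the pooled ratio of the other promoters, and their median promoter also lies below it.

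The Clec promoters ranged from a ratio of 0.0370 at Clec16a to 0.973 at Clec2i, and their subfamilies had different pooled folds. The promoters of the Dectin-2 and DCIR receptors, a cluster on chromosome 6 with start sites from 122921848 to 123289870, stood highest at 2.25-fold (1.96 to 2.58; 2.58 and 2.05 in the 2 experiments), with 7 of 9 above input and 1.31-fold against the GC trend. No other promoter with a matched position lay between them. The 250 kb before the cluster held 7 promoters of other genes at 1.40-fold, with 2 above and 1 below input. Those above were Necap1 (2.47-fold) and Gm5316 (2.23-fold), the nearest to the cluster. The 250 kb after it held 1, Vmn2r19, at 1.10-fold and not called. Clec4a4, which encodes DCIR2, an inhibitory receptor of dendritic cells, had 17 and 15 ChIP reads against 13 and 21 input reads, a ratio of 0.941 and a log2 fold change of 2.17 ± 0.45 (edgeR adjusted p = 2.25e-05). Clec4a2 (DCIR1) had 9 and 29 against 16 and 28, a ratio of 0.864 and a log2 fold change of 2.02 ± 0.41 (edgeR adjusted p = 1.51e-05), with 1.85-fold in v102 and 4.54-fold in v134, and its call was lost without the v134 ChIP library. Its RefSeq start site lies 16262 bases from its GENCODE start site, so the counted window is uncertain.

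Clec4b1, Clec4n (Dectin-2, a receptor for fungal mannan) and Clec4a3 (DCIR3) followed, with ratios of 0.776, 0.681 and 0.612. Clec4n had 26 and 36 ChIP reads against 34 and 57 input reads, at 2.51-fold and 2.77-fold. Clec4e, which encodes Mincle, a receptor for mycobacterial glycolipid, and Clec4b2 had ratios of 0.483 each, and their calls were lost without the v134 ChIP library, without either input and with DESeq2. Clec4a1 (DCIR4) and Clec4d, the partner of Mincle, did not pass. Clec4a1 had 10 and 9 against 17 and 55 and a log2 fold change of 0.39 ± 0.46 (edgeR adjusted p = 0.510), and Clec4d had 8 and 4 against 16 and 42 and a log2 fold change of 0.02 ± 0.55 (edgeR adjusted p = 0.976). Clec4e and Clec4d are neighbours in this cluster and their folds were 2.14 and 1.64 in v102 and 1.75 and 0.42 in v134.

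The Dectin-1 group of the natural killer gene complex stood at 1.25-fold (1.01 to 1.53; 1.26 and 1.25), with 2 of 6 above input and 0.644-fold against the GC trend. Clec12a, an inhibitory receptor of myeloid cells, had 18 and 25 ChIP reads against 16 and 29 input reads, a ratio of 0.956 and a log2 fold change of 2.19 ± 0.40 (edgeR adjusted p = 1.07e-06), and its window is uncertain because its RefSeq and GENCODE start sites lie 7553 bases apart. Clec9a, the dendritic cell receptor for actin of dead cells, had 9 and 13 against 13 and 35, a ratio of 0.458 and a log2 fold change of 1.15 ± 0.47 (edgeR adjusted p = 0.0428), the weakest call among the members above input, and it was lost with library totals, with the block, with DESeq2, without the v134 ChIP library and without either input. Clec7a, which encodes Dectin-1, the receptor for fungal glucan, had 4 and 13 against 12 and 38, a ratio of 0.340, just under the top quartile. The lower end was held by Clec1b, which encodes the platelet receptor for podoplanin, and by Clec1a, with log2 fold changes of -0.49 ± 0.47 and -0.62 ± 0.57 (edgeR adjusted p = 0.417 and 0.394). Clec1a had 7 ChIP reads in v102 and 2 in v134 against 24 and 43 input reads. Clec12b had a ratio of 0.194 and did not pass.

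The Clec2 promoters, several of which encode ligands of the Nkrp1 receptors, stood at 1.11-fold (0.885 to 1.39; 1.45 and 0.91), with 2 of 7 above input, and at 0.777-fold against the GC trend (0.990 and 0.643). Clec2i had 14 and 22 ChIP reads against 13 and 24 input reads, a ratio of 0.973 (0.617 to 1.53) and a log2 fold change of 2.21 ± 0.43 (edgeR adjusted p = 4.73e-06), and was the highest Clec promoter by this measure. Clec2d, which encodes Clr-b, the broadly expressed ligand of Klrb1b, had 1 and 5 against 24 and 50, a ratio of 0.0811 (0.0361 to 0.182) and a log2 fold change of -1.34 ± 0.62 (edgeR adjusted p = 0.0764). Both genes lie on the natural killer gene complex, and both promoter sequences hold fewer CG than the median RefSeq promoter. The intervals of their ratios, for counting error only, do not overlap. The pair was picked as the highest and lowest Clec2 promoters of the complex, so nothing is read from this, and its cause was not tested. Clec2g had 13 and 7 against 10 and 25, with a log2 fold change of 1.47 ± 0.52 (edgeR adjusted p = 0.0172), and 18.8% of its 75-base stretches occur elsewhere. Its call was lost without the v102 ChIP library, without either input, with the block and with DESeq2.

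Clec2j, annotated as a pseudogene, had 11 and 2 ChIP reads against 15 and 21 input reads, and Clec2h had 3 and 4 against 14 and 28. Their windows overlap, so that they share reads, and neither passed. Clec2e had a ratio of 0.184. Clec2l, which lies outside the complex and has a GC content of 58.8%, had 2 and 4 against 19 and 52, a ratio of 0.0845 and a log2 fold change of -1.26 ± 0.63 (edgeR adjusted p = 0.101).

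Among 4 further Clec promoters listed as immune, 1 was above input and the pooled fold was 1.72 (1.36 to 2.18; 1.68 and 1.74). Clec5a, a receptor of myeloid cells that signals through DAP12, had 15 and 28 ChIP reads against 20 and 49 input reads, a ratio of 0.623 and a log2 fold change of 1.59 ± 0.38 (edgeR adjusted p = 2.79e-04). Clec10a, a macrophage receptor for galactose-type sugars, had 3 and 11 against 11 and 16 and a log2 fold change of 1.29 ± 0.59 (edgeR adjusted p = 0.0727), and 67.1% of its 75-base stretches occur elsewhere, the highest share among the members. Clec4g, of liver sinusoidal endothelium, and Clec4f, of liver Kupffer cells, had ratios of 0.380 and 0.246 and did not pass, with log2 fold changes of 0.90 ± 0.42 and 0.21 ± 0.52 (edgeR adjusted p = 0.0776 and 0.763).

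The split of Clec genes by use was made by hand and is not strict. Clec16a is found in most cells, and Clec4g, of liver endothelium, was counted as immune. The 6 Clec promoters listed as used outside immune cells stood at 0.649-fold (0.491 to 0.858; 0.64 and 0.65), with 2 below input and none above, also at an unadjusted edgeR p under 0.05, and at 0.646-fold against the GC trend. Their median ratio was 0.170, at a median percentile of 51.55, which is near the median promoter. Clec16a, an intracellular protein of the autophagy pathway found in most cells, had 0 and 2 ChIP reads against 21 and 33 input reads, a ratio of 0.0370 (0.00995 to 0.138) and a log2 fold change of -2.45 ± 0.90 (edgeR adjusted p = 0.0237). Clec18a had 1 and 1 against 17 and 31, a ratio of 0.0417 and a log2 fold change of -2.27 ± 0.92 (edgeR adjusted p = 0.0415), and 13.2% of the 75-base stretches in its GENCODE window occur elsewhere. Its RefSeq start site lies 10718 bases away, so its counted window is uncertain too. At these depths the calls below input rest on 2 ChIP reads each. Clec14a, an endothelial receptor, had 7 and 11 against 20 and 33, a ratio of 0.340 and a log2 fold change of 0.70 ± 0.49 (edgeR adjusted p = 0.253). Clec11a, a growth factor of bone, and Clec3b, the plasma and matrix protein tetranectin, had log2 fold changes of 0.04 ± 0.54 and -0.28 ± 0.50 (edgeR adjusted p = 0.956 and 0.678), and Clec3a, of cartilage, had -0.28 ± 0.57 (edgeR adjusted p = 0.712).

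Position in the genome was described next. The natural killer gene complex, taken as the stretch of chromosome 6 from the start site of Klrb1a at 128623533 to that of Klra2 at 131247362, held 32 members over 2624 kb, and they stood at 1.99-fold, with 18 above input. Inside it the 20 Klr promoters stood at 2.46-fold (2.22 to 2.72) with 14 above input, and the 12 Clec promoters at 1.27-fold (1.09 to 1.49) with 4 above. These intervals, which hold counting error only, do not overlap, and the median GC contents were 38.1% and 41.3%. The 10 other promoters with a matched position in the stretch stood at 1.86-fold (1.60 to 2.15; 2.37 and 1.60 in the 2 experiments), with 4 above input, Gm5884, Mir680-1, Gm156 and Gm5581. Among those not called were the C-type lectin genes Cd69 and Olr1. The intervals of the members (1.83 to 2.16) and of the other promoters around them overlap, and all 32 members together stood at 1.01-fold against the GC trend. The 250 kb before the complex held 7 promoters at 1.15-fold, with 3 above input, Itfg2, Pzp and Gm8724. The 250 kb after it held 3 at 1.05-fold, with 1 above input. The 13 members outside the 3 clusters stood at 0.913-fold (0.777 to 1.07), with 1 above and 2 below input.

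The partners of these receptors were taken as a list. Of 17 signalling partners 2 were above and 3 below input, and pooled they stood at 0.759-fold (median percentile 52.3). These counts are near the shares of all promoters (18.6% above and 17.0% below), so the calls describe single promoters and not the list. Those above were Tyrobp and Hcst, which encode DAP12 and DAP10, membrane adaptors through which activating killer receptors signal. Fcer1g, another membrane adaptor on the list, went the other way and was not called. It had 1 and 2 ChIP reads against 16 and 36 input reads (log2 fold change -1.81 ± 0.82, edgeR adjusted p = 0.0688). Tyrobp had 14 and 13 ChIP reads against 23 and 40 input reads (log2 fold change 1.04 ± 0.42, edgeR adjusted p = 0.0415), and Hcst had 20 and 11 against 18 and 58 (1.04 ± 0.40, edgeR adjusted p = 0.0317). Those below were Ptpn6, the phosphatase SHP-1 of inhibitory receptors, and Bcl10 and Malt1, which act after Dectin-1 and Dectin-2 in the path to NF-kB. These had log2 fold changes of -2.66 ± 0.87, -1.57 ± 0.66 and -1.99 ± 0.80 (edgeR adjusted p = 0.0102, 0.0486 and 0.0383). Their calls rest on few ChIP reads, 1 and 1 for Ptpn6, 0 and 5 for Bcl10 and 1 and 2 for Malt1. Against these stood 23 and 40, 25 and 47, and 29 and 28 input reads.

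Of 13 listed ligands of the receptors, 9 were in the table, and they stood at 0.607-fold (median percentile 21.8) with 1 above input, H60c, a ligand of NKG2D. Among 42 other C-type lectin promoters 9 were above input, near the 18.6% of all promoters, and 2 below, and pooled they stood at 1.35-fold. Of the 9, 6 were Reg genes, secreted lectins of gut and pancreas, with ratios from 0.763 at Reg3d to 1.33 at Reg3b, and the others were Sftpd (1.25), a lectin of lung surfactant, Colec11 (0.444) and Fcer2a (0.442), which lies just before the Cd209 cluster. Reg4 and Asgr1 were below input. The median GC content was 53.9% over the signalling partners, 54.3% over the ligands and 48.5% over the other C-type lectins, all above that of the members (41.9%), and the part of GC content in these folds was not tested.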

How the data were processed

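H3K9me2 ChIP and input libraries of 2 experiments were analysed. Per the labels, the authors trimmed reads with Trim Galore 0.4.2 and cutadapt 1.9.1 and aligned them to GRCm38 with Bowtie2 2.2.7, and per the paper they counted reads within 1000 bases of start sites with SeqMonk. They deposited the read counts of each library, their sums over the experiments and, as an unscaled ratio, the ChIP sum divided by the input sum. Neither the annotation release nor any removal of duplicates was given in the sources used here. The authors' minimum was applied to the summed input, and the lowest value in the table is 21 reads.

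ChIP and input counts were compared at all 26354 promoters by the quasi-likelihood test of edgeR 4.0.16 in R 4.3.3, with TMM factors and p-values adjusted after Benjamini-Hochberg (threshold 0.05). The code was run on simulated counts with the same spread setting at every promoter and few changed promoters. That run does not give the error rates of the test in these data. The libraries are separate experiments, but the number of animals behind each is not stated, so p-values measure the spread between these libraries. Pooled ratios have 95% Wilson intervals, and folds are relative to 26263 promoters that are neither members nor mitochondrial. The log2 ratio of an experiment was taken with a pseudocount of 1 read and scaled by promoter totals. Expected ratios came from 50 GC bins. Positions and 2 kb windows are from GENCODE vM21 (GRCm38), in which all 61 members and 84.7% of all promoters matched by symbol. A match does not establish the authors' start site. Promoters without a match have no position here, so further promoters of the table may lie in the clusters and their flanks. Repeated sequence is the share of 75-base stretches found again in the genome, and promoter sequences are from RefSeq.

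The experiment number pairs each ChIP library with its own input, as the protocol states, and the difference between the ChIP libraries and that between the inputs had a correlation of 0.104 across promoters. Beyond sampling noise the replicates differed, with a chi-square of 1.52 (ChIP) and 1.28 (input) per degree of freedom. All members may be named. Full statistics were given for the 2 highest and 2 lowest of each group and subfamily and for the Clec genes listed as used outside immune cells, and partner genes were named where they passed the test. A few further members and the partner Fcer1g were given statistics or values beside them after they were seen. The members and lists were chosen with earlier results of these data known. Alternatives were another normalization, DESeq2 1.42.0, a block, other filters, other ways to pool members and leaving out libraries.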

Additional observations from a re-analysis of the deposited data

How the results depend on the processing

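The 31 calls above input became 30 with library totals, which moved the median of all promoters from -0.35 to -0.50 (log2), 28 with the experiment as a replicate block and 24 with DESeq2 (22 members undefined, among them Klra3, Clec16a and Clec18a). Leaving out each library gave 23 to 32 calls. Over all promoters the share above input, 18.6%, was 16.3% with library totals, 15.8% with the block and 11.5% with DESeq2. It was 11.5% to 19.1% with a library left out. Under a minimum of 20 reads per input library 14 of 26 members tested were above, and under a minimum of 50 summed input reads 17 of 37, since fewer members could be tested. The shares above input of all promoters tested were 17.5% and 18.3%. Under these minima the counts were 5 and 6 for Klr, 6 and 7 for Clec and 3 and 4 for Cd209. Leaving out each library gave 9 to 15 for Klr. The 2 calls below input became 0 with the block, with DESeq2 and under the minimum of 20 reads, 1 under that of 50 reads, and 0 to 1 without a library. Over all promoters the calls below input went from 4484 to 2187 with the block. DESeq2 left 29 of them, with 17372 promoters undefined. The block changed the calls of Clec2g, Clec9a, Klra3, Clec16a and Clec18a and no other call among the members.

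The pooled fold of Klr, 2.21, was 2.23 to 2.24 in the single experiments. Medians of member ratios were set against the median ratio of the other promoters, 0.162, and not against their pooled ratio, 0.255. The group medians were 0.577 for Klr, 0.340 for Clec and 1.16 for Cd209. By these medians the folds were 3.57 for Klr, 2.10 for Clec and 7.17 for Cd209, and the quotients 1.70 for Klr over Clec and 3.41 for Cd209 over Clec. Under the minimum of 20 reads they were 2.27 for Klr and 5.93 for Cd209, with Cd209 at 3.71 times Clec and 2.61 times Klr. Against the GC trend Klr was at 1.16 and Clec at 0.963, on the other side of 1, and the quotients were 1.20 for Klr over Clec, 3.93 for Cd209 over Clec and 3.27 for Cd209 over Klr. Among alternatives chosen after seeing the data, leaving out members with repeated sequence gave 5.11 for Cd209, 3.45 against Clec and 2.31 against Klr, and leaving out the highest member gave 2.15 for Klr and 2.61 for Cd209 over Clec. In the Cd209 group the members with repeated sequence were Cd209f and Cd209g, the lowest of that group. Beyond the changed reference and the members left out, the cause of these moves was not tested. With both libraries of an experiment left out, 1 library a side remains and no test was run. At a median of 4 to 5 ChIP reads, low ratios of single promoters are the least certain.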
